A study of Mus musculus with 106 samples.

Results

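Oligodendrocytes wrap axons of the brain in myelin, a stack of compacted membrane rich in cholesterol and galactolipids. The sheath is built from a small set of abundant structural proteins, its edges are sealed by junction proteins, and a few transcription factors set up and maintain the program. Most of these genes are made mainly by oligodendrocytes, so their RNA in a neuron-targeted preparation can come from cells other than the targeted ones. The 31 genes described here were listed by name as oligodendrocyte and myelin genes and found by symbol among 55401 mouse genes in the count table, of which 21897 are protein-coding. Each of the 31 passed the low-count filter in every comparison.

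The libraries came from a mouse model of Huntington's disease (HD) and measured ribosome-bound RNA of chosen neuron classes beside total RNA of the same tissue. In RiboTag mice, Cre adds an HA tag to the ribosomal protein Rpl22, and tagged ribosomes with their RNA are pulled down by immunoprecipitation (IP). Total RNA comes from the centrifuged homogenate (its supernatant) before that step. HD mice were Hdh Q7/Q200 and controls were their Hdh Q7/Q7 littermates, all on a 129S4 background, heterozygous for the RiboTag allele and for vGluT2-IRES-Cre, Gad2-IRES-Cre or PV-IRES-Cre, and killed at about 9 months. An SST line is labelled in the same way, and the methods name neither a Cre allele nor an age for it. Some SST control mice have codes that begin with Z, while all SST HD mice have codes that begin with BR. Whether these mice were littermates is not known from the labels. Cerebrum (without olfactory bulb) was used for each line and cerebellum for the Gad2 and vGluT2 lines. The HD allele is a long repeat knocked into 1 copy of the mouse gene. Recombination by Cre is permanent, so any cell that had the driver active earlier in life is tagged too, and each sample mixes many areas of its region.

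There were 67 libraries of IP and 39 of total RNA, from 45 mice by their codes. In the cerebrum, control and HD libraries numbered 6 and 6 for Gad2 IP, 6 and 5 for PV IP, 5 and 4 for SST IP, and 6 and 6 for vGluT2 IP. Cerebral total RNA had 3 and 3 libraries for each of the Gad2, PV and vGluT2 lines and 4 and 3 for SST. In the cerebellum there were 6 and 6 Gad2 IPs, 5 and 6 vGluT2 IPs, 3 and 3 total RNA libraries of the Gad2 line and 4 and 4 of the vGluT2 line. Library totals ran from 21905221 to 107753586 estimated counts, with a median of 35866726. Among IP groups the median total was lowest in SST controls (30536348) and highest in cerebral vGluT2 HD mice (40790140). For PV IP it was 31923772 in controls and 36313896 in HD, for cerebral Gad2 IP 34372986 and 36163928. Total RNA group medians ran from 29017527 in the cerebellar Gad2 line (HD) to 45464390 in the cerebellar vGluT2 line (HD). Levels are given as counts scaled to library size by TMM (CPM), and differences as log2 ratios with a standard error (SE). The CPM of a library differ somewhat between comparisons and summaries, so ranges of the same libraries need not match between paragraphs. A gene was called when its Benjamini-Hochberg adjusted p over all genes tested was 0.05 or less in edgeR's quasi-likelihood test, and DESeq2 was run beside it.

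The labelled neuron classes were checked against defining markers in control libraries. In cerebral Gad2 IPs the median level of Gad1 was 1632 CPM against 342 in total RNA, that of Gad2 was 454 against 81.7, and that of Slc32a1 was 816 against 203. Pvalb stood at 661 in PV IPs against 81.5 in their total RNA, and Sst at 1491 in SST IPs against 139.6. Slc17a6, which encodes vGluT2, was at 119 in cerebral vGluT2 IPs against 28.0. Each line's own marker was therefore higher in its IP, and none was absent. PV and SST IPs also held Slc17a7, a marker of glutamatergic neurons, at 859.9 and 823 CPM against 1965 and 1883 in total RNA. Slc17a6 was at 127 and 124 against 58.4 and 50.4, and which cells this RNA came from was not tested. In the cerebellum, Gad1 was at 1907 in Gad2 IPs against 476 in total RNA, and the granule cell gene Gabra6 at 1236 in vGluT2 IPs against 509.

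Some libraries stood apart. Fewer than 15000 protein-coding genes were detected in 5 IPs, against a median of 16342.5 in cerebral IPs and 15712 in cerebellar ones: 13384 in cerebellar Gad2 control replicate 5, 14248 in cerebral Gad2 control replicate 5, 14871 in cerebral vGluT2 control replicate 6, 13593 in cerebellar vGluT2 HD replicate 6 and 12642 in cerebral vGluT2 HD replicate re1. The last had a count of 0 for 6 members (Opalin, Ermn, Fa2h, Gjc3, Olig2 and Nkx6-2). Leaving these 5 out made no member called or uncalled in HD against control, and the number of depleted members was 31 in cerebral Gad2, 31 in cerebral vGluT2, and, for the cerebellum, 29 in Gad2 and 31 in vGluT2 IPs, with or without them. Without them the median HD difference of members was -0.30 in cerebral Gad2, -0.27 in cerebral vGluT2, -0.071 in cerebellar Gad2 and -0.065 in vGluT2 IPs of the cerebellum, against -0.20, -0.21, -0.14 and -0.18 with them. By their labels, 3 IPs, all of HD mice, come from a second run that holds no control. They are PV replicate re2, cerebral vGluT2 replicate re1 and cerebellar Gad2 replicate re1. The methods state that these failed a first sequencing and were sequenced again with longer reads than the rest. Without the re-sequenced library the members called in HD against control were 1 for PV IPs (2 with it) and 0 for both other sets (0 with it). Libraries also differed in how counts depended on transcript length, taken as all annotated exons of a gene joined together. This slope, in log2 CPM per doubling of length, ran from 0.0852 to 0.193 in the 4 control and from -0.282 to -0.0937 in the 4 HD total RNA libraries of the cerebellar vGluT2 line. In that set the genotypes did not overlap in slope, and slope and genotype cannot be told apart there. HD results from total RNA are therefore also given with the slope as a covariate, a fit chosen after the data were seen.

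**Figure D1:**
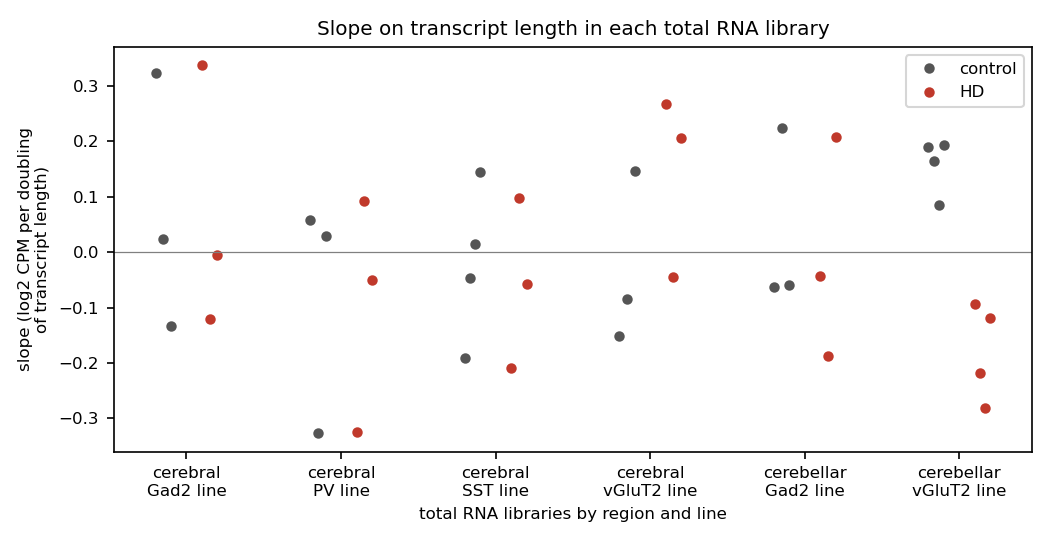
Slope of log2 CPM on transcript length (log2 CPM per doubling of length) in each total RNA library, by region and line, with 1 point per library. Control and HD points interleave in 5 of the 6 sets and separate in the cerebellar vGluT2 line, where the control points lie above 0 and the HD points below it.

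Levels between members were compared per kilobase of all annotated exons of a gene joined together, in total RNA of control mice. That length is at least as long as any single transcript, so the level of a gene with many isoforms can be understated. In the cerebrum (13 libraries) Mbp, the major protein of compact myelin, was highest at 398 ± 58.2 CPM per kb (mean ± SD), followed by Cnp, an enzyme of the cytoplasmic channels of myelin, at 171 ± 30.5, and the iron carrier gene Trf at 147 ± 27.4. The means of Cnp and Trf differed by less than the SD of either. Cldn11, whose protein forms the tight junctions between myelin turns, was at 111 ± 13.9, and Mag, an adhesion protein of the innermost layer, at 88.5 ± 16.0. The lowest were Aspa at 2.66 ± 0.730 and Anln at 2.03 ± 0.937. The same 3 genes led in the cerebellum (7 libraries), Mbp at 249.5 ± 32.6 CPM per kb. Enpp2 ranked 4 there with 77.8 ± 45.3, a wide spread. Enpp2 and Trf are also genes of the choroid plexus. The summed CPM of 8 choroid plexus genes ran from 41.1 to 4702 among cerebellar total RNA libraries, and Ttr made up 94.2% of its mean. The part of the choroid plexus in the levels of Enpp2 and Trf was not tested.

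Depletion from the IPs was measured against total RNA of the same line and region, both genotypes together and genotype as a covariate, with no library shared between the 6 comparisons. Mbp ran from 152 to 353 (median 195) CPM in cerebral vGluT2 IPs and from 1817 to 3807 (median 3091) in total RNA, a log2 difference of -3.71 (SE 0.16). In Gad2 IPs of the cerebrum it ran from 192 to 692 (median 343) against 2156 to 4175 (median 3264), a difference of -3.12 (SE 0.23). In neither line did the IP and total RNA ranges meet. Mbp ran from 371 to 1099.6 (median 678) CPM in PV IPs, with 2517 to 4318 (median 3163) in their total RNA (-2.29, SE 0.14), and from 822 to 1815 (median 1142) in SST IPs, with 2495 to 3701 (median 3563) in theirs (-1.42, SE 0.15). The lowest SST IP thus held more Mbp than the highest vGluT2 or Gad2 IP of the cerebrum, and still less than any total RNA library of its own line. In the cerebellum the difference was -2.48 (SE 0.12) for Gad2 IPs and -2.96 (SE 0.12) for vGluT2 IPs.

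Over the 31 members, edgeR called 31 of 31 lower in cerebral vGluT2 IPs, where 28.2% of all genes tested were called lower, with a median log2 difference of -3.65 against 0.0035 for all genes. For cerebral Gad2 IPs it was 31 of 31 (all genes 25.4%), with a median of -2.93 against 0.027. PV IPs had 29 of 31 members called lower (all genes 35.9%), with a median of -1.84 against 0.0056. The median was thus furthest from 0 in vGluT2 and nearest to 0 in PV among these 3. By the methods, PV samples pooled duplicate IPs of the same homogenate to raise yield, which is stated for no other line. SST IPs had 23 of 31 called lower (all genes 31.2%) and 1 called higher, Mobp (all genes 32.2%), with a median of -1.14 against -0.0080. In the cerebellum 29 of 31 were called lower in Gad2 IPs (all genes 32.7%), with a median of -2.22 against -0.022, and 31 of 31 in vGluT2 IPs (all genes 31.8%), with -2.96 against 0.067. The differences between lines in depletion were not tested.

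**Figure D2:**
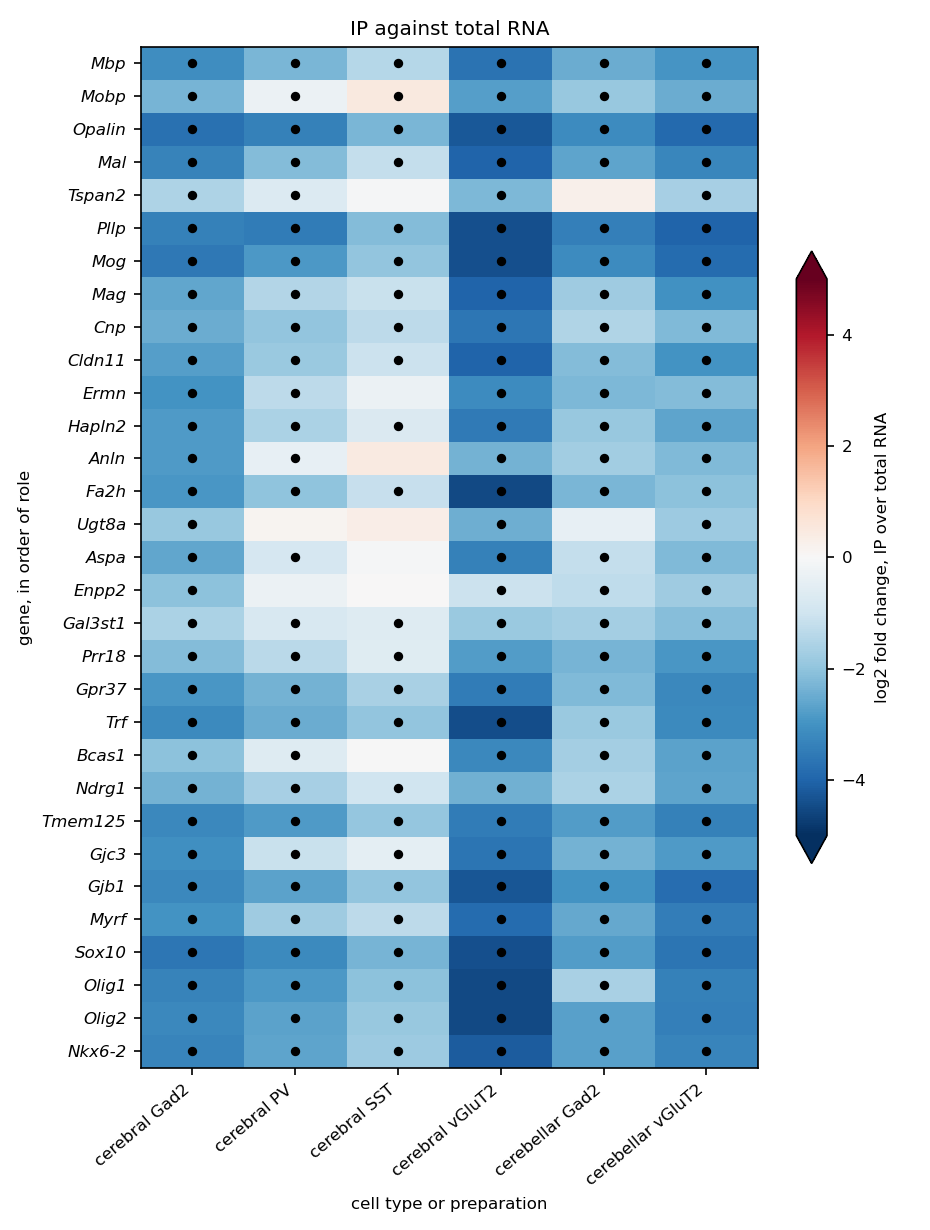
Log2 fold change of IP over total RNA for the 31 members, in order of role, in each of 6 line and region sets, with dots on those called by edgeR. Each gene is blue in the cerebral Gad2 column and in both vGluT2 columns, and the uncalled genes without a dot are in the PV, SST and cerebellar Gad2 columns.

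By role, the 5 transcription factors of the lineage (Sox10, Olig1, Olig2, Nkx6-2 and Myrf) had medians of -4.39 in cerebral vGluT2, -3.28 in cerebral Gad2, -2.67 in PV and -1.89 in SST IPs. Sox10, which is required for oligodendrocyte differentiation, ran from 6.14 to 9.94 (median 8.18) CPM in PV IPs and from 52.8 to 113 (median 64.9) in total RNA (-3.18, SE 0.16). These ranges were far apart, and the same gene in SST IPs ran from 8.71 to 24.0 (median 13.2) against 49.1 to 89.9 (median 76.4) (-2.33, SE 0.17). The 2 gap junction genes, Gjc3 and Gjb1, had medians between -3.97 (cerebral vGluT2) and -1.22 (SST). The role of compact myelin and membrane layers was given 6 genes (Mbp, Mobp, Opalin, Mal, Tspan2, Pllp). Opalin was counted there, though its protein lies at the paranodal and inner loops. Opalin and Pllp were among the 3 most depleted members in PV, SST, cerebellar Gad2 and cerebellar vGluT2 IPs. Pllp, a small membrane protein of myelin, ran from 2.05 to 7.42 (median 3.35) CPM in cerebellar vGluT2 IPs and from 44.2 to 81.3 (median 57.7) in total RNA (-4.02, SE 0.21). Mog, on the outer surface of the sheath, had log2 differences of -3.58 in cerebral Gad2, -2.86 in PV, -1.99 in SST, -4.41 in cerebral vGluT2, -3.14 in cerebellar Gad2 and -3.84 in vGluT2 IPs of the cerebellum.

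The least depleted members came from more than 1 role. Mobp, a second basic protein of compact myelin, ran from 258 to 602 (median 376) CPM in SST IPs and from 229 to 362 (median 262) in total RNA (0.48, SE 0.16, adjusted p 0.0117 in edgeR's quasi-likelihood test). The ranges overlapped, with the IPs on the higher side. In PV IPs Mobp ran from 165 to 313 (median 210.1) against 199.5 to 317 (median 262) (-0.29, SE 0.11, adjusted p 0.0269 in edgeR), again with overlap. Ugt8a, which makes galactosylceramide, ran from 13.4 to 54.9 (median 38.7) in PV IPs against 16.8 to 54.5 (median 33.0) and was not called (0.12, SE 0.24), and in SST IPs its difference was 0.32 (SE 0.24). Enpp2, which makes lysophosphatidic acid, was not called in PV IPs (-0.28, SE 0.17), and neither were Tspan2 (0.26, SE 0.17) and Ugt8a (-0.42, SE 0.24) in cerebellar Gad2 IPs. For Ugt8a and Enpp2 in PV IPs the IP range lay within or across that of total RNA. SST IPs left 7 members uncalled, their log2 differences between -0.31 and 0.43. Scaling bears on these. With CPM not scaled by TMM the median of all genes moved up by 0.17 in PV and 0.16 in SST comparisons, and 27 members were called lower in PV, 22 lower and 2 higher in SST. Most of all genes called in these fits were higher in the IP. The shares of all genes called lower or higher without TMM are not given here, and the members were not tested against them. Mouse bears on them too, since many IP and total RNA libraries came from the same mice and the reported fits have no term for it. Among mice with both preparations and with the mouse as a block, 27 members were called lower in PV, where Mobp (adjusted p 0.176 in edgeR) and Anln (adjusted p 0.224 in edgeR) were not called. In SST the same fit called 23 lower and 3 higher, Ugt8a (0.60), Anln (0.53) and Mobp (0.42). The shares of all genes called with the mouse as a block are not given here, and these counts were not tested against them.

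Other lists show what else remained in the IPs. Of 30 other oligodendrocyte genes, 29 of 30 were called lower in cerebral Gad2, 26 in PV, 24 in SST, 29 in cerebral vGluT2, 28 in cerebellar Gad2 and 27 in vGluT2 IPs of the cerebellum. Of 14 astrocyte genes the counts were 14, 11, 11, 14, 13 and 14 in the same order. For 13 microglia genes they were 10, 13, 13, 13, 11 and 13, for 10 endothelial genes 10, 10, 8, 10, 10 and 10, and for 8 choroid plexus genes 6, 8, 8, 8, 7 and 7. Most genes of these lists were therefore depleted along with the members in each line. Of 13 genes of oligodendrocyte precursors, 11, 8, 5, 11, 12 and 11 were called lower. Only 3 of 4 Schwann cell genes were tested in each set, with 1, 0, 1, 2, 1 and 2 called lower, and their summed level never passed 4.89 CPM in any library. Of all genes 3165, 5278, 4785, 3638, 3956 and 4799 were called higher, out of 14723, 14791, 14865, 14729, 14229 and 14230 tested, and no list was tested against these shares. Of 10 pan-neuronal genes 1, 5, 4, 7, 4 and 7 were called higher and 1, 1, 2, 0, 4 and 0 lower. Of the 10 markers of the targeted neurons (9 tested in the cerebellum), which are not all made by any 1 line, 6, 6, 6, 2, 5 and 3 were called higher and 3, 2, 2, 7, 2 and 5 lower.

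HD was compared with control first in the IPs. In PV IPs, edgeR called 2 of 31 members lower and none higher, where it called 0.034% of all genes tested (5 of 14713), and DESeq2 called 3 (all genes 0.285%). The 2 were Fa2h and Prr18, and DESeq2 added Mal. Fa2h hydroxylates the fatty acids of myelin galactolipids. Its level in PV IPs of controls ran from 14.3 to 23.6 (median 17.0) CPM, and in HD it was at 7.25, 8.38, 8.47, 9.67 and 11.0. Each HD library was below each control library, and the log2 difference was -0.99 (SE 0.14), with an adjusted p of 0.0430 in edgeR's quasi-likelihood test. Prr18 encodes a proline-rich protein of unknown role in oligodendrocytes and ran from 23.7 to 34.6 (median 31.1) in controls, against HD libraries at 15.6, 16.8, 17.1, 17.4 and 20.5. Here too the groups did not overlap (-0.79, SE 0.11, adjusted p 0.0430 in edgeR). These 2 were the only members whose groups did not overlap with HD below, where 0.489% of all genes did so. Mal, a raft protein of compact myelin, ran from 40.2 to 63.1 (median 59.7) in controls and was at 22.4, 28.5, 30.9, 38.2 and 46.4 in HD, with overlap (-0.73, SE 0.18, adjusted p 0.381 in edgeR and 0.0264 in DESeq2). A lower level in an IP can come from fewer cells of a type or from less RNA per cell, and these cannot be told apart in bulk samples.

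Single libraries decide the PV calls. With any 1 of the 11 libraries left out, the adjusted p of Fa2h in edgeR ran from 0.0508 to 0.196, so it was no longer called, while its log2 difference stayed between -1.08 and -0.89. Prr18 kept its call without control replicate 3 (adjusted p 0.0237) and without HD replicate re2 (adjusted p 0.0309), and lost it without any other library, edgeR's adjusted p reaching 0.179 and its log2 difference running from -0.85 to -0.75. HD replicate re2 is the library with the highest total of all. The direction of both differences was the same in each fit, and the calls depended on which library was left out. With the replicate number as a block 0 members were called, edgeR's adjusted p being 0.216 for Fa2h (-0.99) and 0.317 for Prr18 (-0.82), and with log2 Xist as a covariate 0 were called as well.

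Of the 31 members, 29 were lower in HD in PV IPs, against 49.1% of all genes, with a median log2 difference of -0.34 against 0.0023, and 14 had an unadjusted p under 0.05 in edgeR, as did 630 of 14713 genes. By role, the count lower and the median were 5 of 5 and -0.55 for lipid synthesis (Fa2h, Ugt8a, Aspa, Enpp2, Gal3st1). They were 5 of 6 and -0.46 for compact myelin and membrane layers, with Opalin counted there and not under loops. For loops, adhesion and cytoskeleton (Mog, Mag, Cnp, Cldn11, Ermn, Hapln2, Anln) they were 7 of 7 and -0.23. They were 5 of 6 and -0.32 for the remaining Prr18, Gpr37, Trf, Bcas1, Ndrg1 and Tmem125, 2 of 2 and -0.29 for gap junctions, and 5 of 5 and -0.20 for transcription factors. The medians of lipid synthesis and compact myelin were thus furthest from 0 and that of the transcription factors nearest to it, a difference that was not tested. Cldn11 ran from 54.7 to 81.6 (median 69.3) in controls and was at 36.8, 37.4, 38.6, 55.99 and 59.3 in HD (-0.61, SE 0.15), and Ugt8a ran from 27.7 to 57.7 (median 49.0) and was at 13.5, 29.1, 29.2, 33.4 and 39.9 (-0.71, SE 0.24). Both overlapped between groups and neither was called. Mbp ran from 580.3 to 1117 (median 799.6) in controls and was at 392.5, 551, 575, 677 and 682 in HD (-0.52, SE 0.17). For Sox10 the control libraries ran from 6.51 to 10.5 (median 8.47) and the HD libraries were at 6.50, 7.68, 8.43, 9.27 and 10.1, an almost equal level (-0.022, SE 0.15), and for Mog the difference was -0.21 (SE 0.17).

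Other lists were looked at beside the members in PV IPs, where 49.1% of all genes were lower. The summed level of the 30 other oligodendrocyte genes ran from 1483 to 2182 CPM in the 6 controls and from 1158 to 1374 in the 5 HD libraries, without overlap, and 25 of 30 were lower. Il33 (-1.07, SE 0.18) and Klk6 (-1.11, SE 0.26) were called by DESeq2, and edgeR called none of the 30. For the 14 astrocyte genes the sum ran from 2400.4 to 3195 in controls and from 1771 to 2627 in HD, with overlap, and 13 of 14 were lower. Their most abundant gene Slc1a2 had a log2 difference of -0.77 (SE 0.15), and Agt was called by edgeR (-1.13, SE 0.17, adjusted p 0.0430). DESeq2 called Agt, Kcnj10, Slc1a2 and Slc6a11. The part of astrocyte RNA, or of any RNA from cells other than PV neurons, in the member differences was not tested. No precursor, microglia, endothelial, choroid plexus, Schwann cell, pan-neuronal or targeted neuron gene was called by either tool in PV IPs, with 0, 1, 0, 0, 0, 0 and 0 at an unadjusted p under 0.05 in edgeR. The summed members ran from 1759.7 to 2808 in controls and from 1540.3 to 2022 in HD, with overlap.

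**Figure D3:**
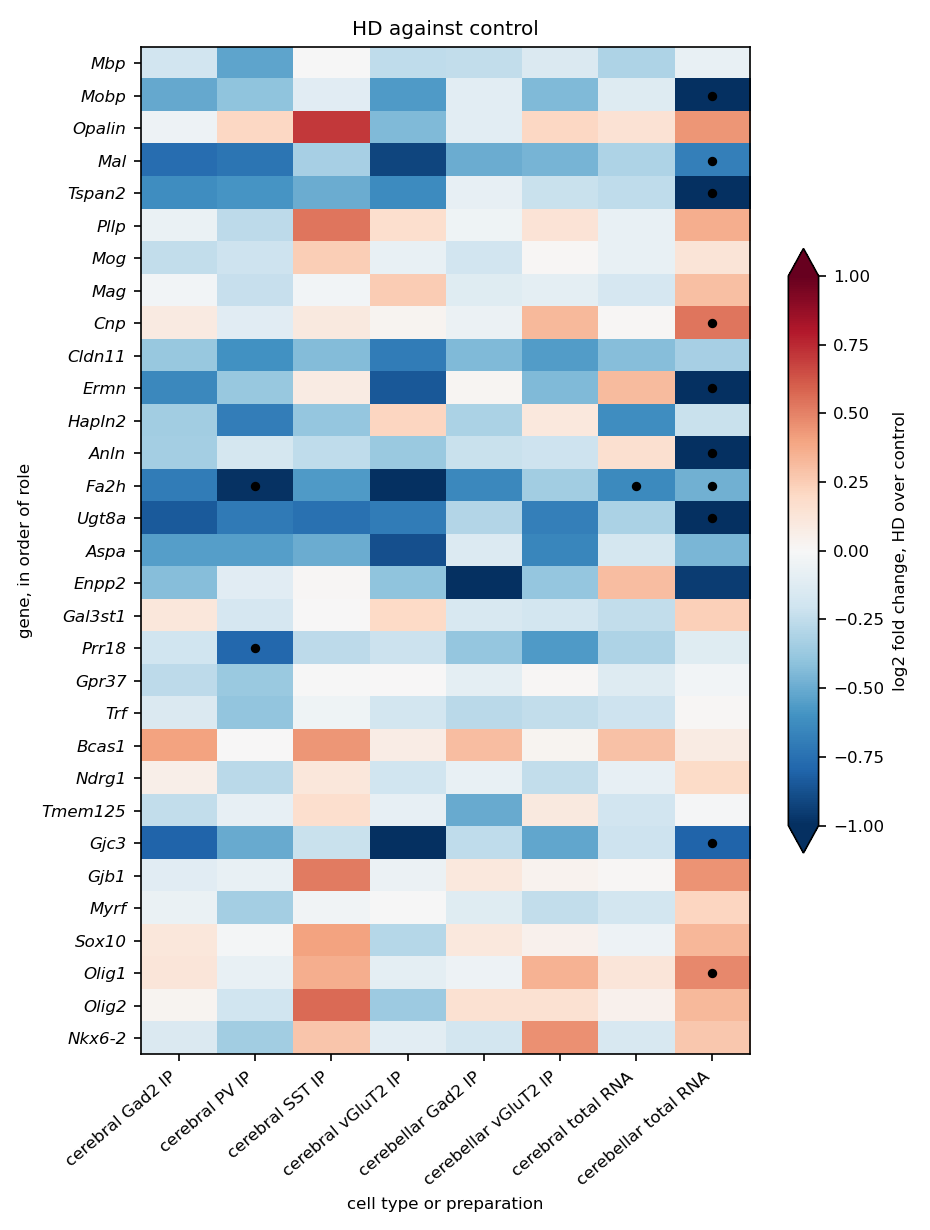
Log2 fold change of HD over control for the 31 members, in order of role, in 6 IP and 2 total RNA comparisons, with dots on those called by edgeR and colours capped at -1 and 1. Fa2h carries a dot in PV IP, cerebral total RNA and cerebellar total RNA, and the cerebellar total RNA column holds 10 dots of both colours.

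In the other IPs no member was called. For cerebral Gad2 IPs edgeR called 0 of 31 members and DESeq2 0, with 1 (1313 of all 14342 genes) at an unadjusted p under 0.05 in edgeR (all genes called 0.0279% by edgeR and 0.523% by DESeq2). Of the members, 24 were lower in HD, with a median log2 difference of -0.20 against -0.0062 for all genes. Leaving out 1 library at a time moved that median from -0.32 to 0.054, so its direction rested on single libraries. The member with the lowest p was Tspan2, a tetraspanin of early myelin, which ran from 25.9 to 56.4 (median 37.6) in controls and from 14.4 to 43.3 (median 22.1) in HD, with overlap (-0.62, SE 0.26). All 13 microglia genes were higher in HD in these IPs, none called, and their summed level ran from 147 to 339 CPM in controls and from 163 to 651 in HD. Mbp had a log2 difference of -0.19 (SE 0.30), Mog of -0.24 (SE 0.37) and Sox10 of 0.11 (SE 0.45), each smaller than its SE.

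In cerebral vGluT2 IPs edgeR called 0 of 31 members and DESeq2 0, with 5 (1045 of all 14354 genes) at an unadjusted p under 0.05 in edgeR (all genes called 0.00697% and 0.174%). DESeq2 gave no adjusted p here for Opalin, Fa2h, Gjb1, Olig2, Nkx6-2, Aspa, Tmem125 and Hapln2, so it could not call them. There were 24 members lower, with a median of -0.21 against -0.018 (-0.36 to -0.10 without 1 library each). Enpp2 ran from 86.5 to 135 (median 121) in controls and from 57.1 to 101 (median 93.8) in HD (-0.40, SE 0.14), Mal ran from 7.14 to 25.5 (median 13.9) and from 4.06 to 16.3 (median 6.87) (-0.92, SE 0.36). Cldn11 ran from 8.97 to 16.1 (median 12.8) and from 3.23 to 12.1 (median 8.65) (-0.70, SE 0.28). All 3 overlapped between groups. Mbp had -0.25 (SE 0.19), Mog -0.071 (SE 0.28) and Sox10 -0.28 (SE 0.30). SST IPs, where only controls include mice with Z codes, showed no common direction. There edgeR called 0 of 31 members and DESeq2 0, with 4 (207 of all 14689 genes) at an unadjusted p under 0.05 in edgeR (all genes called 0% and 0.0136%), and 16 members were lower and 15 higher, with a median of -0.00044 against 0.0081 (-0.084 to 0.054 without 1 library each). Fa2h was at 20.1, 25.2, 25.9, 34.3 and 39.8 in controls and at 16.7, 18.9, 19.4 and 23.5 in HD (-0.57, SE 0.20). Olig2, a factor of the whole lineage, was at 8.63, 8.74, 9.11, 9.97 and 14.5 and at 11.4, 15.3, 16.7 and 16.8 (0.57, SE 0.20), and Bcas1, a gene of early myelinating cells, was at 105, 118, 139, 144 and 153 and at 139, 165, 175 and 238 (0.44, SE 0.18). Fa2h was mostly lower and Olig2 and Bcas1 mostly higher in HD, each with overlap. Mbp differed by -0.00044 (SE 0.22), Mog by 0.25 (SE 0.26) and Sox10 by 0.40 (SE 0.24).

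Cerebellar Gad2 IPs had 26 of 31 members lower, with a median of -0.14 against 0.0037 (-0.25 to -0.071 without 1 library each), and edgeR called 0 of 31 members and DESeq2 0, with 3 (324 of all 14098 genes) at an unadjusted p under 0.05 in edgeR (all genes called 0.0142% and 0.156%). Fa2h had the lowest p among them. It ran from 6.88 to 12.3 (median 8.07) CPM in controls and from 4.48 to 6.88 (median 5.30) in HD, the groups meeting only at their ends (-0.64, SE 0.17). Mal had a difference of -0.49 (SE 0.17) and Cldn11 of -0.44 (SE 0.16), both with overlap, and Mbp, Mog and Sox10 of -0.24 (SE 0.14), -0.19 (SE 0.17) and 0.11 (SE 0.16). In cerebellar vGluT2 IPs edgeR called 0 of 31 members and DESeq2 0, with 2 (2090 of all 13487 genes) at an unadjusted p under 0.05 in edgeR (all genes called 2.11% and 4.93%), and 18 members were lower with a median of -0.18 against -0.011. Without 1 library each that median ran from -0.26 to 0.015 and as few as 14 members were lower, so its sign also rested on single libraries. Cnp was at 84.9, 89.8, 97.4, 105.8 and 126 in controls and ran from 112 to 155 (median 122) in HD (0.32, SE 0.13). Ugt8a was at 8.25, 11.3, 12.5, 13.3 and 18.5 and ran from 2.94 to 12.3 (median 7.61) (-0.68, SE 0.30), and Cldn11 had -0.56 (SE 0.27). Cnp was mostly higher and Ugt8a mostly lower in HD, with overlap. Mbp, Mog and Sox10 differed by -0.14 (SE 0.15), 0.0079 (SE 0.29) and 0.041 (SE 0.27). In this comparison edgeR called the astrocyte gene Agt (-0.82, SE 0.19) and the neuronal gene Snap25 (-0.71, SE 0.11), and DESeq2 also Aldoc and Cryab.

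Total RNA was taken before the IP, from the supernatant of the homogenate. In the cerebrum, with the Gad2, PV and vGluT2 lines together and line as a covariate (9 control and 9 HD libraries), edgeR called 1 of 31 members, Fa2h, where it called 0.141% of all genes, and DESeq2 called 4, Fa2h, Cldn11, Mal and Hapln2, where it called 0.8%. Fa2h ran from 45.0 to 66.3 (median 58.6) CPM in controls and from 29.0 to 52.6 (median 37.2) in HD. Most HD libraries lay below the lowest control, with overlap at the edges, and the log2 difference was -0.63 (SE 0.11), adjusted p 0.0310 in edgeR's quasi-likelihood test. Cldn11 ran from 160.3 to 229.5 (median 199.9) and from 115 to 189 (median 147) (-0.43, SE 0.084, adjusted p 0.0520 in edgeR). Mal ran from 159.8 to 239 (median 217) and from 142 to 193 (median 169) (-0.31, SE 0.069, adjusted p 0.105 in edgeR). Hapln2, a matrix protein of the node of Ranvier, ran from 16.1 to 27.2 (median 20.9) and from 9.38 to 20.1 (median 13.1) (-0.62, SE 0.17, adjusted p 0.225 in edgeR). All 3 were mostly lower in HD and overlapped between groups. Mbp ran from 2469 to 4308 (median 3283) and from 1782 to 3703 (median 2724) (-0.31, SE 0.13), also with overlap, while Mog (-0.076, SE 0.095) and Sox10 (-0.054, SE 0.16) were nearly level.

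The cerebral call of Fa2h was kept in 5 of the 18 fits that left out 1 library, those without control replicate 1 of the Gad2 line, control replicate 1 of the PV line, HD replicates 2 and 3 of the Gad2 line and HD replicate 1 of the PV line, with edgeR's adjusted p from 0.0146 to 0.103 and its log2 difference from -0.71 to -0.59. With the replicate number as a block it was not called (adjusted p 0.0519 in edgeR, -0.65). With that block in the Gad2 line alone, Fa2h (-0.48) and Cldn11 (-0.44) were called (0.160% of all genes), a fit chosen after the data were seen. This was the 1 set whose replicate numbers correlate in each pair, and it was picked by these same values. Its replicate numbers mostly do not join mice with neighbouring codes. Its calls are therefore no support for the reported one. Without HD replicate 1 of the PV line Cldn11 was called too (adjusted p 0.0421 in edgeR). With the SST line's total RNA added, Fa2h, Cldn11, Mal, Hapln2 and Prr18 were called (0.645% of all genes). Over all members 22 were lower, against 45.7% of all genes, with a median of -0.16 against 0.021 and 8 at an unadjusted p under 0.05 in edgeR, as were 984 of 14871 genes. Medians by role ran from -0.25 for lipid synthesis and -0.19 for compact myelin to -0.054 for transcription factors. With the slope on transcript length as a covariate edgeR called 9 members lower (2.74% of all genes in either direction, 27.7% of these higher): Fa2h (-0.60), Hapln2 (-0.56), Ugt8a (-0.50), Cldn11 (-0.41), Tspan2 (-0.41), Mal (-0.34), Gjc3 (-0.32), Prr18 (-0.28) and Mbp (-0.24). None of them is a transcription factor. The same fit changed no call among members in PV IPs, where Fa2h (-0.98) and Prr18 (-0.79) were called.

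**Figure D4:**
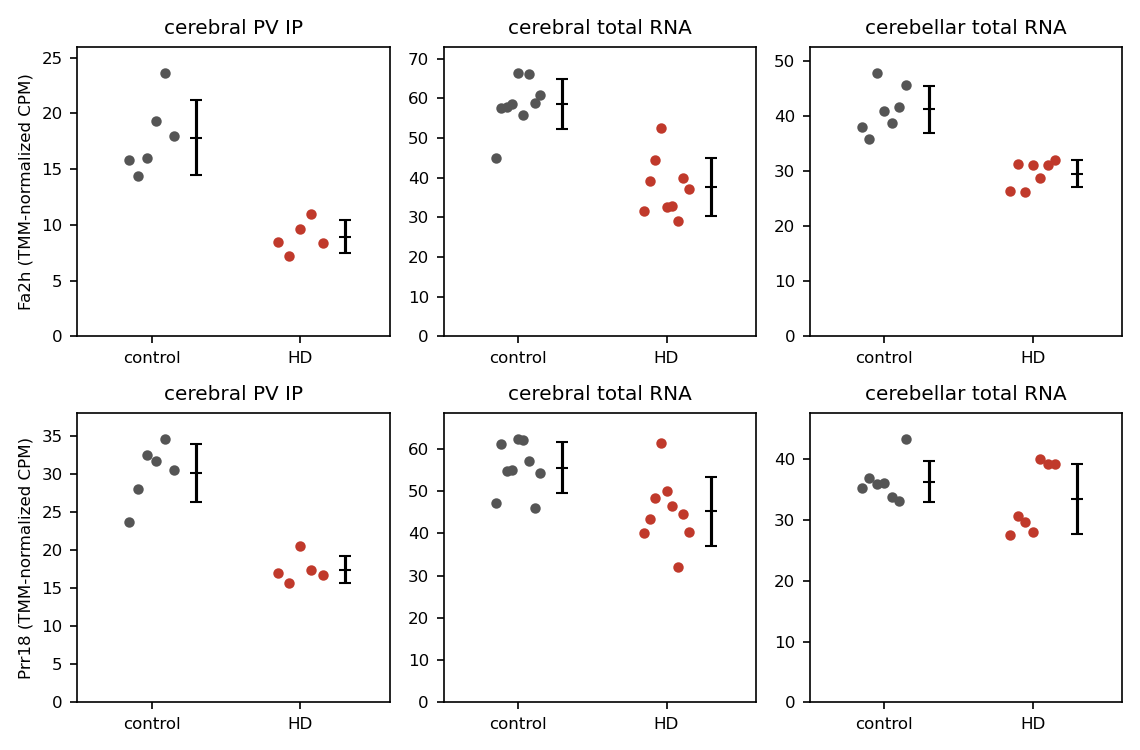
Level of Fa2h (upper) and Prr18 (lower) in TMM-normalized CPM in control and HD libraries of PV IP, cerebral total RNA and cerebellar total RNA, with 1 point per library and the mean ± SD beside them. In PV IP each HD point lies below each control point for both genes, and in total RNA the groups overlap except for Fa2h in the cerebellum.

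In these cerebral libraries, 19 of 30 other oligodendrocyte genes were lower, and DESeq2 called Klk6 (-1.001, SE 0.20), Qdpr (-0.31, SE 0.064) and Serpinb1a (-0.43, SE 0.11) lower and Apod (0.50, SE 0.11) and Zfp488 (0.49, SE 0.13) higher, edgeR none. Of the astrocyte genes, 10 of 14 were lower and DESeq2 called Slc6a11 (-0.41, SE 0.088) and Agt (-0.76, SE 0.16). Of 13 precursor genes 9 were higher. None of the precursor, microglia, endothelial, choroid plexus, Schwann cell, pan-neuronal and targeted neuron genes was called by edgeR or DESeq2, with 1, 1, 0, 2, 0, 1 and 0 at an unadjusted p under 0.05 in edgeR. The HD difference thus had no single direction over the oligodendrocyte genes of cerebral total RNA.

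In cerebellar total RNA (Gad2 and vGluT2 lines, 7 control and 7 HD libraries), edgeR called 10 of 31 members, where it called 24.5% of all genes. It called 8 members lower (all genes 12.5%) and 2 higher (all genes 12%), and DESeq2 called 12 (all genes 34.4%). The members called lower were Mobp, Mal, Fa2h, Tspan2, Gjc3, Ermn, Ugt8a and Anln, the higher ones Cnp and Olig1, and DESeq2 added Olig2 and Opalin as higher. Mobp ran from 308 to 629 (median 391.9) CPM in controls and from 166 to 319 (median 209) in HD (-1.05, SE 0.18). Mal ran from 120.4 to 198 (median 138) and from 73.0 to 108 (median 94.8) (-0.68, SE 0.13), and Fa2h from 35.9 to 47.8 (median 41.0) and from 26.1 to 32.0 (median 31.1) (-0.48, SE 0.096). For Mal and Fa2h each HD library was below each control, as for 0.497% of all genes, and Mobp overlapped by 1 end. Ermn, a cytoskeletal protein of myelin, ran from 24.9 to 86.2 (median 59.9) and from 12.4 to 51.8 (median 14.8) (-1.46, SE 0.37). Cnp, higher in HD, ran from 292 to 527 (median 404) and from 396 to 828 (median 612) (0.54, SE 0.18), and Olig1 from 57.8 to 83.0 (median 66.9) and from 65.8 to 141 (median 91.1) (0.48, SE 0.16). These 3 overlapped between groups. The other called members had log2 differences of -1.11 for Tspan2, -0.80 for Gjc3, -1.11 for Ugt8a and -1.09 for Anln. Mbp (-0.071, SE 0.12), Mog (0.13, SE 0.13) and Sox10 (0.33, SE 0.15) were not called.

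The cerebellar calls depended on the line and on single libraries of both lines. With the vGluT2 line alone 21 members were called, 8 lower and 13 higher, with 7565 of 14630 genes, and with the Gad2 line alone 0 members and 0 genes were called by edgeR, from 3 against 3 libraries. The vGluT2 line is the one whose genotypes separate in slope. With the slope as a covariate 73 genes were called (0.504%, either direction) and 2 members, both lower. Of the 10 only Fa2h kept its call (-0.58, adjusted p 0.0166 in edgeR's quasi-likelihood test), and Hapln2 gained a call (-0.54, adjusted p 0.0443 in edgeR). With the replicate number as a block 0 members were called, with an adjusted p of 0.121 in edgeR for Mobp, Mal and Fa2h alike. Leaving out 1 library at a time gave 2 to 17 members called, with 96 to 7408 of all genes, and Mal and Mobp were called in each of the 14 fits and Fa2h in 11. The count was 2 or 3 without any 1 vGluT2 line control, without HD replicate 2, 3 or 4 of that line, or without control or HD replicate 2 of the Gad2 line. It was 12 and 15 without control replicates 1 and 3 of the Gad2 line, 9 and 17 without HD replicates 1 and 3 of that line, and 7 without HD replicate 1 of the vGluT2 line.

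Other lists are given for the same libraries, where edgeR called 12.5% of all genes lower and 12% higher, and no list was tested against these shares. EdgeR called 7 of 30 other oligodendrocyte genes lower and 4 higher, Il33 (-1.15, SE 0.19) among the lower ones, 4 of 14 astrocyte genes lower, led by Aqp4 (-1.02, SE 0.30), and 6 of 13 microglia genes higher, led by Tmem119 (0.66, SE 0.15). It called 3 of 13 precursor genes higher and 2 lower, 1 of 10 pan-neuronal genes higher and 2 lower, and none of the endothelial, choroid plexus and Schwann cell genes, of which 2, 0 and 0 had an unadjusted p under 0.05 in edgeR (6423 of 14477 genes) and 0 were called by DESeq2. Of 9 targeted neuron genes tested, Slc17a7 was called higher (0.57, SE 0.18) and Gad1 (-0.35, SE 0.12) and Gad2 (-1.001, SE 0.23) lower. The summed choroid plexus level ran from 51.1 to 4702 and 211 to 1977 CPM in controls of the Gad2 and vGluT2 lines and from 41.1 to 1525 and 56.8 to 1749 in HD, so it varied within every set. The part of these cell types in the member differences was not tested.

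Whether the HD difference differs between IP and total RNA was tested as an interaction within each line and region, with no term for the mouse. For cerebral PV, edgeR called 0 of 31 members and DESeq2 0, with 1 at an unadjusted p under 0.05 in edgeR (all genes called 0% by edgeR and 0% by DESeq2, 246 of 14791 unadjusted). Of the 31, 30 had a lower HD difference in the IP than in total RNA, with a median of -0.24 against -0.034, and Prr18 had the lowest p (-0.60, SE 0.19). Leaving out 1 total RNA library at a time moved the member median from -0.33 to -0.12, and as few as 24 members were then lower. For cerebral Gad2 both tools called 0 members, 0 with an unadjusted p under 0.05 in edgeR (all genes called 0% by edgeR and 0% by DESeq2, 45 of 14723 unadjusted), and the member median was -0.037 against 0.023. Without 1 total RNA library each this median ran from -0.17 to 0.13, so its sign rested on single libraries. SST also gave 0 members by edgeR and 0 by DESeq2, 0 under 0.05 unadjusted in edgeR (all genes called 0% by edgeR and 0.00673% by DESeq2, 58 of 14865 unadjusted), with 26 of 31 higher, against 7900 of 14865 genes, and a median of 0.20 against 0.016. Cerebral vGluT2 had 0 by edgeR and 0 by DESeq2, 3 under 0.05 unadjusted in edgeR (all genes called 0% by edgeR and 0% by DESeq2, 2506 of 14729 unadjusted), and Enpp2 the lowest p (-0.84, SE 0.30), followed by Mag (0.62, SE 0.23). For cerebellar Gad2 they were 0 and 0, 0 unadjusted (all genes called 0% by edgeR and 0.0562% by DESeq2, 117 of 14229 unadjusted), with a median of 0.11 against 0.021 (0.023 to 0.13 without 1 total RNA library each). So the calls of Fa2h and Prr18 in PV IPs were not shown to differ from the HD differences in total RNA of the same line.

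The cerebellar vGluT2 line was the exception. There edgeR called 5 of 31 members (all genes 28.6%) and DESeq2 7 (all genes 33.7%). Ermn (1.78, SE 0.33) and Tspan2 (1.29, SE 0.35) had a higher HD difference in IP than in total RNA (all genes 18.6%), and Gjb1 (-0.83, SE 0.25), Cnp (-0.60, SE 0.20) and Mag (-0.80, SE 0.28) a lower one (all genes 10%). The share of members called was below that of all genes. In total RNA of this line alone Ermn differed by -2.23 and Cnp by 0.93, while in the IPs they differed by -0.44 and 0.32, so the larger differences were those in total RNA. Ermn, Tspan2 and Gjb1 were called in each of the 8 fits that left out 1 total RNA library, and Cnp and Mag in 4 and 4, both no longer called without control replicates 1 and 2 and HD replicates 1 and 3. The count was then 3, or 4 without HD replicate 1, and 3200 to 4433 of all genes were called over the 8 fits. Without the libraries of few genes it was 7, 4 higher and 3 lower (29.5% of all genes). With the slope as a covariate the called members were Mag (-1.67), Trf (-1.52) and Ndrg1 (-1.48), all lower (all genes 7.81% in either direction, 85.1% of these higher).

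Differences between cell types were tested among IPs. PV minus Gad2 gave 0 members by edgeR and 0 by DESeq2, 1 with an unadjusted p under 0.05 in edgeR (all genes called 0.00683% by edgeR and 0.00683% by DESeq2, 344 of 14642 unadjusted), and the member median was -0.22 against -0.021. The lowest p was that of Prr18 (-0.62, SE 0.29), then Ndrg1 (-0.36, SE 0.30). PV minus vGluT2 in the cerebrum also gave 0 and 0, 1 unadjusted in edgeR (all genes called 0% by edgeR and 0% by DESeq2, 243 of 14642 unadjusted), with Hapln2 (-0.89, SE 0.42) and Prr18 (-0.55, SE 0.29) lowest in p and a median of 0.022 against 0.040. VGluT2 minus Gad2 in the cerebellum gave 0 and 0 as well, 0 unadjusted in edgeR (all genes called 0.107% by edgeR and 0.523% by DESeq2, 989 of 13971 unadjusted), with a median of -0.0024 against -0.045. The HD difference of the members in PV IPs was therefore not shown to differ from that in Gad2 or vGluT2 IPs.

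Promoters are printed for the members called by either tool in PV IPs or cerebral total RNA (Fa2h, Prr18, Mal, Cldn11 and Hapln2), as the members these results turn on. The windows run from 250 bases before to 50 after the start of a gene and come from RefSeq on build GRCm38.p6, and 22 of the members have 31 windows among those used here, Fa2h none. Capitals mark ACAAAG and ACAATG on either strand, letters bound by SOX proteins, of which the member Sox10 is 1. Of 32851 windows in all, 9394 (28.6%) hold at least 1, as do 15 of the 31 member windows (11 members). A match describes letters and shows no binding. Prr18 has 2 windows, chr17:8340156-8340455 (+ strand) with 2 matches and chr17:8340489-8340788 (+ strand) with 1. Hapln2 at chr3:88027462-88027761 (- strand) has 1 match, and Cldn11 at chr3:31149670-31149969 (+ strand) and Mal at chr2:127656646-127656945 (- strand) have 0.
Cldn11: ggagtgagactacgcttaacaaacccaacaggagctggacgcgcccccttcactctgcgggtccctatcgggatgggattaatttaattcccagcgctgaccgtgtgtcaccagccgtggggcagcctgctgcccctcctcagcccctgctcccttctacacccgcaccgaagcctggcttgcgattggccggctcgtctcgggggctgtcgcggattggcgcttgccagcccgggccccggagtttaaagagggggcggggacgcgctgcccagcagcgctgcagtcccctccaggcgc
Prr18 window 1: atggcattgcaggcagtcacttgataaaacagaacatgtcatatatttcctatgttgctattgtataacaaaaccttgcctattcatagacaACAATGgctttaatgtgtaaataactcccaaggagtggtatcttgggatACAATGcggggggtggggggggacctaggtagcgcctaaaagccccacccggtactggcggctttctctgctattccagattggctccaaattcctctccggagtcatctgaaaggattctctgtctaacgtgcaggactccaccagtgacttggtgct
Prr18 window 2: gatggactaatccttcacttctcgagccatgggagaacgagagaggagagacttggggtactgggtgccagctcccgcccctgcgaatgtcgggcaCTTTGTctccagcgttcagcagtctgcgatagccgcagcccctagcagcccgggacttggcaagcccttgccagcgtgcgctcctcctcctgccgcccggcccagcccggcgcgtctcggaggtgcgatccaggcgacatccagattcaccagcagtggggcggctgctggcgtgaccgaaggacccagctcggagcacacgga
Mal: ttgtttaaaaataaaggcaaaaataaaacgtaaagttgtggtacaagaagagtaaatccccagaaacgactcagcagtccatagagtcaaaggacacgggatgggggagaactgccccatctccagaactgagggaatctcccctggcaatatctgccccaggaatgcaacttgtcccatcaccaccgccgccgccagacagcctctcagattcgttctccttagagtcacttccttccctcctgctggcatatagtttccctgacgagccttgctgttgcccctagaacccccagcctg
Hapln2: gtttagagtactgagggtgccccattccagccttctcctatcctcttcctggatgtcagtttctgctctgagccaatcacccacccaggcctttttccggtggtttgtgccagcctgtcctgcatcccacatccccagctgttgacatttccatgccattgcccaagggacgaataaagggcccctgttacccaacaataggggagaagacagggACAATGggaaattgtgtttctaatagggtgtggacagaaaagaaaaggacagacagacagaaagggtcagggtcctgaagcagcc

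Position was looked at for shared reads. Fa2h lies at chr8:111345135-111393824, Prr18 at chr17:8337459-8344113, Mal at chr2:127633226-127656695, Cldn11 at chr3:31149920-31164324 and Hapln2 at chr3:88021750-88027583 of GRCm38. The printed Prr18 windows lie inside the position given here for that gene and not at its start. No member overlaps a protein-coding gene on its own strand. On the opposite strand Cnp overlaps Dnajc7, Ermn overlaps Galnt5, Tspan2 overlaps Tshb and Nkx6-2 overlaps Inpp5a, and antisense RNAs are annotated at Ndrg1, Bcas1, Tspan2 and Pllp. Noncoding RNAs of the same strand lie at Mobp, Anln and Prr18. The libraries are stranded, and reads shared with these RNAs were not analysed here.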

How the data were processed

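RiboTag IP and total RNA libraries (Illumina TruSeq stranded mRNA, paired ends) were aligned and quantified by the authors with STAR and Salmon on GRCm38.p6, and the deposited values are estimated counts per gene, not scaled between libraries. Of these values 8.57% were not whole (tolerance 1e-09), and they were rounded. The 92 ERCC spike-ins, at most 4.45% of a library, were left out. Of 55401 genes, 55141 matched GENCODE M21, which gave symbols, types and lengths. The length of a gene is the union of its annotated exons, also where transcript length is named. No 2 replicates were alike within counting error, as chi-square over degrees of freedom was at least 8.37 in 201 pairs.

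Genes that code for protein and average more than 10 counts over the compared libraries were fitted with edgeR 4.0.16 (TMM, quasi-likelihood test) in R 4.3.3 and adjusted by Benjamini-Hochberg over all genes tested. Alternatives were DESeq2 1.42.0, its size factors, CPM without TMM, no filter, all gene types, replicate number or mouse as a block, log2 Xist as a covariate, subsets of lines and leaving out single libraries. Each library was left out in turn for HD against control, some or all for IP against total RNA, and only total RNA libraries for IP minus total RNA. Differences between cell types were not refitted in this way. The slope on transcript length and libraries with few genes were added after the data were seen. SE is the log2 difference over the square root of F. Fits were tested on simulated data. Other software was limma 3.58.1, the package data.table (1.17.8), Python 3.11.15, pandas 2.3.3, NumPy 2.4.6 and Matplotlib 3.10.9.

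The labels do not say whether replicate numbers pair mice of the 2 genotypes. In Gad2 IPs, control and HD libraries of the same number mostly come from mice with neighbouring codes. Only in 1 of 12 sets, total RNA of the cerebral Gad2 line, did every pair correlate above 0.1 (0.375 to 0.901). Of 48 pairs, 13 were best with their own number. Such correlations cannot show that mice were unpaired. Not every value that the rule for named genes covers is printed, above all for IP against total RNA and tests of a difference. The rule took Mbp, Mog and Sox10, members called by either tool or else the 3 with the lowest p (2 for tests of a difference), and the 3 most and least depleted. From the lists of other oligodendrocyte, precursor, astrocyte, microglia, endothelial, choroid plexus, Schwann cell, pan-neuronal and targeted neuron genes it named those called and the most abundant, and 1 of these is not reported here. The members and lists were chosen with earlier results of these data known. Precision of genes with few counts is limited by library totals of 21905221 to 107753586.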

Additional observations from a re-analysis of the deposited data

Results flagged for a closer look

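Of 120 groups of values looked at (genes detected, summed members and single members, by group), 14 held 1 library far from the others, where chance gives about 1 in 20. Genes detected were far below the rest in cerebellar Gad2 control replicate 5 (13384), cerebral Gad2 control replicate 5 (14248), SST control replicate 6 (15064), cerebellar vGluT2 HD replicate 6 (13593) and cerebral vGluT2 HD replicate re1 (12642). Cerebellar vGluT2 control replicate 2 was high in summed members (1256 CPM) and in Mbp (391 CPM), and SST total RNA control replicate 4 was low in Mbp (2874 CPM). Cerebral Gad2 HD replicate 1 was high in Mog (16.3 CPM) and Mal (30.7 CPM), cerebellar Gad2 HD replicate 2 in Sox10 (7.70 CPM), and cerebellar Gad2 control replicate 5 in Fa2h (12.5 CPM). Cerebellar vGluT2 total RNA HD replicate 1 was low in Prr18 (26.8 CPM) and cerebral vGluT2 HD replicate 2 was high in Mal (17.1 CPM).

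The HD difference differed between IP and total RNA in the cerebellar vGluT2 line for 5 members by edgeR's interaction test: 1.78 for Ermn, 1.29 for Tspan2, -0.83 for Gjb1, -0.60 for Cnp and -0.80 for Mag on the log2 scale. All are in a set where 28.6% of all genes passed the same test.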

How the results depend on the processing

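Low-count members in IPs vary widely, few libraries stand behind each line, and 1 library can end a call. Whether depth or the number of libraries limited the HD calls was not tested. Total RNA of the cerebellar vGluT2 line cannot separate genotype from slope. The count of members called in IP against total RNA, lower and higher together, stayed within 1.5 times in every alternative run. Over all comparisons and alternatives the count of members called stayed within 1.5 times in 280 of 337 cases, the count of all genes in 231 and the median of members within its spread in 329. Named members kept direction and side of the threshold in 2176 cases, lost the call in 159, gained it in 43 and changed sign in 67. In every case the cause was not tested, and fits with the slope, without libraries of few genes, or with the Gad2 line alone and a block were chosen after seeing the data. CPM without TMM moved the median of all genes to 0.17 in PV and 0.16 in SST IPs against total RNA, and 59.3% and 62.7% of called genes were then higher in the IP.

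In PV IPs 2 members were called in the reported fit, and 0 with the replicate block, 0 with log2 Xist as a covariate, 1 without the re-sequenced library and 0 to 1 without 1 library each. Of all genes, 5 were called there in the reported fit and 0 to 4 without 1 library each. In cerebral total RNA 1 was called as reported, 4 by DESeq2, 2 with DESeq2 size factors, 2 with no low-count filter, 2 with all gene types, 0 with the replicate block, 5 with SST added, 0 with the Gad2 line alone, 0 with the PV line alone, 0 with the vGluT2 line alone, 9 with the slope on transcript length as a covariate, 2 with the Gad2 line alone and the replicate block, and 0 to 2 without 1 library each. The share of all genes called was 0.141% as reported, 0.8% by DESeq2 and 2.74% with the slope. Without 1 library each, 4 to 43 of all genes were called. In cerebellar total RNA 10 were called as reported, 0 with the replicate block, 0 with the Gad2 line alone, 21 with the vGluT2 line alone, 2 with the slope and 2 to 17 without 1 library each. For IP minus total RNA in cerebellar vGluT2, 5 were called as reported, 3 with the slope and 3 to 5 without 1 total RNA library each.

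Log2 differences of HD against control became, with the replicate block, 0.080 for Sox10 in PV IPs. With log2 Xist as a covariate they became 0.019 for Sox10 in PV IPs and -0.042 for Mog and -0.16 for Sox10 in cerebellar vGluT2 IPs. Without the re-sequenced library Sox10 was at 0.021 in PV IPs. With the slope, Sox10 was at -0.049 in cerebral Gad2 IPs, -0.020 in cerebellar vGluT2 IPs and 0.012 in cerebral total RNA, and Mog at -0.11 in cerebellar total RNA. With the PV line alone cerebral total RNA gave 0.011 for Mog and 0.093 for Sox10, and with SST added 0.015 for Sox10. In cerebellar total RNA the Gad2 line alone gave -0.21 for Mog and -0.0081 for Sox10, the vGluT2 line alone 0.095 for Mbp. Without libraries of under 15000 genes Sox10 was at -0.11 in cerebral Gad2 IPs.

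For IP minus total RNA the slope gave -0.073 for Mbp in cerebral Gad2, and -0.065 for Mbp and -0.042 for Mog in cerebral vGluT2. Without libraries of under 15000 genes the values were -0.041 for Mbp and -0.081 for Sox10 in cerebral Gad2, -0.087 for Mog in cerebral vGluT2, 0.063 for Sox10 in PV minus Gad2 and 0.074 for Mog in PV minus vGluT2.

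Without 1 library each, HD against control ran from -0.29 to 0.11 for Mbp, -0.47 to 0.092 for Mog and -0.11 to 0.58 for Sox10 in cerebral Gad2 IPs, -0.098 to 0.056 for Sox10 in PV, -0.21 to 0.15 for Mbp in SST, -0.20 to 0.092 for Mog in cerebral vGluT2, -0.014 to 0.17 for Sox10 in cerebellar Gad2, -0.20 to 0.19 for Mog and -0.087 to 0.17 for Sox10 in cerebellar vGluT2 IPs, and -0.14 to 0.0065 for Mbp in cerebellar total RNA. PV IP against total RNA, with 11 of its libraries left out in turn, ran from -0.015 to 0.26 for Ugt8a. For IP minus total RNA, only total RNA libraries were left out in turn. The difference then ran from -1.80 to 0.39 for Ermn, -0.13 to 0.25 for Mbp and -0.064 to 0.33 for Sox10 in cerebral Gad2, -0.34 to 0.27 for Sox10 in PV, -0.12 to 0.13 for Sox10 in cerebral vGluT2, and -0.060 to 0.20 for Mbp, -0.070 to 0.15 for Mog and -0.023 to 0.37 for Sox10 in cerebellar Gad2.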
